A study of Sus scrofa with 79 samples.

Results

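The gut hormone and neuropeptide genes GCG, CCK, SST, GHRL, MLN, VIP, CHGA, NTS and PYY were followed in jejunum, ileum and blood of pigs (Sus scrofa) on 1-colour Agilent arrays. A gene was taken as measured when the transcript accession of a probe maps to its symbol in RefSeq. This gave 6 of the 9 genes and 8 of 43603 probes, with 2 probes each for CCK and MLN and 1 each for GCG, SST, GHRL and CHGA. VIP, NTS and PYY matched no probe in this way and are not analysed here. A symbol could be given to 5461 of the 43603 probes.

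Piglets of TOPIGS20 sows (GY x NL) were assigned to treatments within the litter and stayed with their mother. T1 piglets were left undisturbed, T2 piglets received tulathromycin, an antibiotic, at 2.5 mg/kg under the skin of the neck at day 4, and T3 piglets received that injection together with docking, clipping and weighing. Samples were taken from jejunum and ileum at days 8, 55 and 176 and from whole blood at day 8, and the arrays of each tissue and day fell into 3 treatment groups of 3 or 4 arrays. Each array held the RNA of a pool of 4 pigs according to the methods for day 8, so the error of every value is that between pools and the spread between single pigs was not measured.

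There were 67 tissue and 12 blood arrays. Jejunum at day 8 had 12 arrays, and jejunum at days 55 and 176 and ileum at all days had 11 each. The share of spots well above background ranged from 42.4% to 75.2% per tissue array and from 34.8% to 44.1% per blood array. Values are log2 intensities after quantile normalization, in which 1 unit is a doubling of the signal, and levels of different probes were not compared with each other. A difference was called when its adjusted p in limma was below 0.05 and its fold above 1.5.

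Enteroendocrine cells are scattered single cells of the gut epithelium that sense the luminal content and release peptide hormones from secretory granules. MLN encodes motilin, which sets off the migrating contractions of the fasted gut, and GHRL encodes ghrelin, a related peptide that stimulates appetite. CCK encodes cholecystokinin, which triggers gallbladder contraction and pancreatic enzyme release after a meal, and GCG encodes proglucagon, from which intestinal L cells cut GLP-1 and GLP-2. SST encodes somatostatin, which inhibits the release of the other hormones, and CHGA encodes chromogranin A, a protein of the granule itself. CCK, GHRL and MLN are known mainly from the upper gut, whereas L cells become more frequent towards the distal gut.

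The labels were first compared with region markers. GATA4, a transcription factor of the proximal small intestine, was higher in every jejunum array than in any ileum array at day 55 (jejunum 5.88 to 8.25, ileum 1.66 to 3.99) and at day 176 (jejunum 5.01 to 8.91, ileum 1.69 to 4.91). At day 8 it did not separate the tissues, with 7.03 to 8.27 in jejunum and 6.13 to 8.30 in ileum. FABP6, the bile acid binding protein of the ileum, ranged from 5.82 to 16.16 in jejunum and from 5.62 to 16.48 in ileum at day 8. Its highest value was that of T1 pool 9 in both tissues (16.16 and 16.48) and its lowest that of T2 pool 5 (5.82 and 5.62). Of the ileum markers looked for, only FABP6 was on the array under its symbol, and at day 8 neither marker therefore told the labelled tissues apart. FABP6 also overlapped at day 55 (jejunum 14.02 to 18.52, ileum 17.81 to 18.33). At day 176 it ranged from 7.52 to 18.45 in jejunum and from 18.28 to 18.67 in ileum. GATA4 was among 4 proximal markers on the array. At day 8 their summed levels were 16.4 to 17.3 in jejunum and 16.4 to 17.3 in ileum. These levels did not overlap at day 55 (jejunum 17.2 to 17.5, ileum 15.4 to 16.5). At day 176 they did (jejunum 15.4 to 17.6, ileum 15.4 to 16.8).

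The deposited table of normalized values names the arrays differently from the scanner files. Of its 45 columns named for tissues of day 8 or 55, 44 held another array of the same treatment and pool. Columns named ileum of day 8 held the arrays labelled jejunum of day 8, those named jejunum of day 8 held arrays labelled jejunum of day 55, those named ileum of day 55 held arrays labelled ileum of day 8, and those named jejunum of day 55 held arrays labelled ileum of day 55. The labels of the scanner files were used here. Under the names of the table the difference given below for jejunum between days 55 and 8 would be read as one between tissues at day 8, and that for ileum between days 55 and 8 as one between tissues at day 55. The differences between tissues at days 8 and 55 would in turn be read as differences between days 8 and 55 in ileum and in jejunum, and the arrays with GATA4 at 1.66 to 3.99 would be jejunum of day 55. The arrays of blood and of day 176 carry the same names in both.

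There were 6 tissue arrays and 2 blood arrays that stood apart, with a median correlation with the other arrays of their tissue and day of 0.861 to 0.956, against 0.963 to 0.986 for the rest. These were jejunum T2 pool 8 of day 8, ileum T1 pool 11 of day 8, ileum T3 pool 3 of day 55, and jejunum T1 pool 9, T2 pool 8 and T3 pool 4 of day 176. The arrays lay on 11 slides, and no slide held tissue arrays of more than 1 day. Differences between days therefore cannot be told apart from differences between slides. The 4 arrays of ileum T3 at day 55 were alone on a slide with a raised background, on which neither MLN nor CHGA was well above background.

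**Figure D1:**
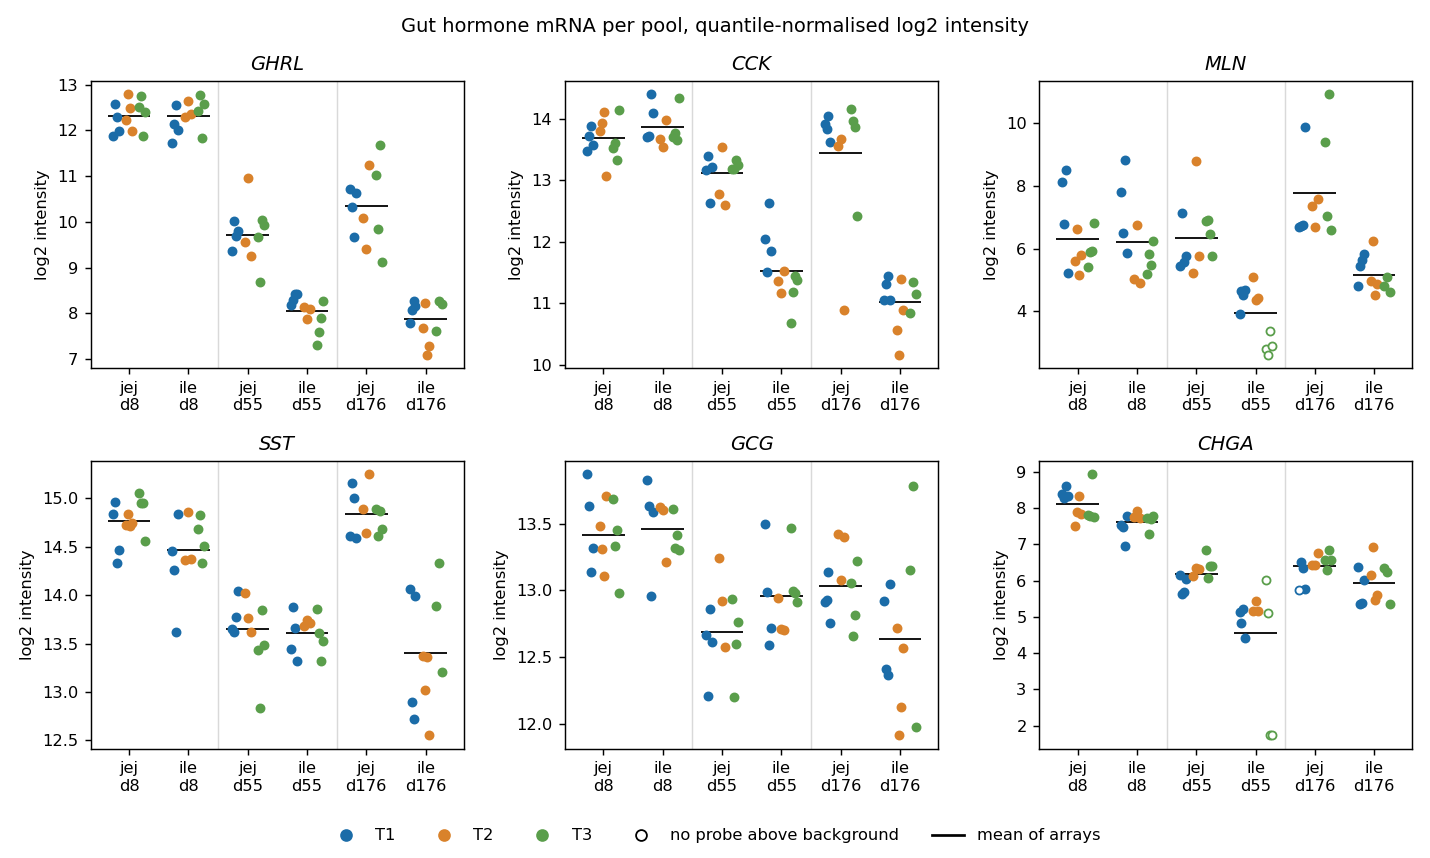
Log2 intensity (y axis) of each measured gene in every tissue array, by tissue and day (x axis; jej, jejunum; ile, ileum; d, day). Points are pools coloured by treatment, open points had no probe well above background, and black lines are means over the arrays. GHRL was between 11.7 and 12.8 in all arrays of day 8 and between 7.08 and 8.42 in all ileum arrays of the later days.

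Between jejunum and ileum at day 8 none of the 6 genes was called in limma, where 3.54% of 27200 genes were called. GHRL had a lowest, median and highest log2 intensity of 11.87, 12.35 and 12.80 in jejunum and of 11.72, 12.37 and 12.78 in ileum. CCK had 13.07, 13.67 and 14.15 in jejunum and 13.54, 13.73 and 14.40 in ileum. The ranges overlapped nearly completely, and the 95% interval of the difference (ileum minus jejunum) was -0.30 to 0.30 for GHRL and -0.11 to 0.47 for CCK. CHGA had 7.51, 8.08 and 8.93 in jejunum and 6.95, 7.73 and 7.91 in ileum. Its difference of -0.50 (SE 0.14, adjusted p = 0.045) was under the fold asked for, with lower ileum values in 8 of 11 pools. SST was lower in ileum in 9 of 11 pools with a difference of -0.29 (adjusted p = 0.146), while those of GCG (0.05, SE 0.12) and MLN (-0.16, SE 0.39) were smaller than their standard errors. No gene of the 6 had arrays without overlap between the tissues, beside 0.0147% of all genes.

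At day 55, CCK, GHRL, MLN and CHGA were lower in ileum than in jejunum, and GCG and SST were not called. These are 4 of the 6 genes, beside 41.7% of 29139 genes called in either direction and 20.8% called lower. No slide of day 55 held both tissues, so tissue and slide cannot be told apart at that day. In bulk tissue, fewer cells of a type and less RNA per cell cannot be told apart. The 2 genes with arrays that did not overlap between tissues, GHRL and MLN, compare with 10.4% of all genes. The median difference was -1.59 over the 6 genes and 0.03 over all genes tested.

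MLN, the motilin gene, had a lowest, median and highest log2 intensity of 5.23, 5.76 and 8.80 in jejunum and of 2.59, 4.37 and 5.11 in ileum, so that the highest ileum array lay just under the lowest jejunum array. It was well above background in all 11 jejunum arrays but in only 7 of 11 ileum arrays. The difference was -2.37 (SE 0.34, adjusted p = 9.9e-06 in limma), with lower ileum values in all 11 pools, and it is given without a fold because MLN was not well above background on 4 of 11 ileum arrays, all of T3. With the T3 arrays left out in both tissues it was -1.76 (adjusted p = 0.00242), with the scaling to the 75th percentile -1.41 and with normexp -0.93, and it was called in each case. The probes differed in size, at -3.54 and -1.20, and each was called.

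GHRL had 8.69, 9.68 and 10.95 in jejunum and 7.31, 8.13 and 8.42 in ileum. The groups did not overlap, and every ileum pool was below the jejunum pool of the same number. The difference was -1.70 (SE 0.20, 3.25-fold, adjusted p = 8.38e-07).

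CCK had 12.60, 13.19 and 13.55 in jejunum and 10.69, 11.45 and 12.63 in ileum. T1 pool 11 was the 1 ileum array that reached the lowest jejunum value. The difference was -1.59 (SE 0.15, 3.02-fold, adjusted p = 6.39e-08), and both probes agreed in size, with -1.54 and -1.65.

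CHGA had 5.64, 6.15 and 6.83 in jejunum and 1.73, 5.14 and 6.02 in ileum. The 2 lowest ileum values and the highest one were all from the T3 slide, on which the probe was not above background. The difference was -1.59 (SE 0.40, adjusted p = 0.00259), and no fold is given since CHGA was not well above background on 4 ileum arrays. Without T3 in both tissues it was -0.99 and no longer called (adjusted p = 0.118). It was also not called with normexp (-0.48), and with the scaling to the 75th percentile it was -0.67 and called.

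GCG and SST were not called. GCG had 12.20, 12.67 and 13.24 in jejunum and 12.59, 12.95 and 13.50 in ileum. SST had 12.84, 13.65 and 14.05 in jejunum and 13.32, 13.66 and 13.87 in ileum. The tissues overlapped for both genes, and the 95% intervals of the difference were -0.04 to 0.51 for GCG and -0.28 to 0.21 for SST. A larger GCG signal in ileum than in jejunum was thus within the interval but was not called (adjusted p = 0.142).

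At day 176 the genes lower in ileum were CCK, SST, GHRL and MLN, 4 of 6 beside 27.2% of 27905 genes called in either direction and 14.6% called lower. CHGA and GCG were not called. The arrays of the tissues did not overlap for SST, GHRL and MLN, as was the case for 5.06% of all genes. The median difference over the 6 genes was -1.89, and that over all genes was -0.06.

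MLN had a lowest, median and highest log2 intensity of 6.58, 7.05 and 10.94 in jejunum and of 4.51, 4.95 and 6.24 in ileum. Jejunum pools were widely spread, with T3 pools 1 and 3 and T1 pool 12 above 9 and the others below 8. The difference was -2.60 (SE 0.48, 6.07-fold, adjusted p = 0.000342).

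GHRL had 9.13, 10.34 and 11.69 in jejunum and 7.08, 8.07 and 8.26 in ileum. All jejunum arrays were above all ileum arrays, and the difference was -2.45 (SE 0.28, 5.48-fold, adjusted p = 2.13e-06).

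CCK had 10.89, 13.83 and 14.16 in jejunum and 10.16, 11.05 and 11.45 in ileum. The groups overlapped through 1 array, jejunum T2 pool 8, whose 2 CCK probes read 14.32 and 7.46 and which stood apart from the other jejunum arrays. The difference was -2.36 (SE 0.29, 5.13-fold, adjusted p = 4.86e-06), and it was -2.79 (adjusted p = 5.31e-09) without the arrays that stood apart.

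SST had 14.59, 14.87 and 15.25 in jejunum and 12.55, 13.36 and 14.33 in ileum. The lowest jejunum array was above the highest ileum array, and the difference was -1.41 (SE 0.19, 2.66-fold, adjusted p = 1.45e-05).

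CHGA and GCG overlapped between the tissues. CHGA had a difference of -0.47 (SE 0.20, adjusted p = 0.076) and GCG one of -0.39 (SE 0.18, adjusted p = 0.106), with lower ileum values in 6 of 10 pools for each.

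With the slide as a block none of these 4 calls remained at day 176 (CCK -3.18, adjusted p = 0.0704; SST -0.53, adjusted p = 0.649; GHRL -1.99, adjusted p = 0.23; MLN -3.67, adjusted p = 0.196), and 447 genes were called in place of 7604. Only 1 slide of that day held both tissues, with ileum T1 beside jejunum T3, so treatment and tissue are not separate on it. On this slide the mean differences (ileum minus jejunum) were -2.39 for CCK, -1.35 for SST, -2.35 for GHRL and -3.07 for MLN. For CHGA and GCG they were -0.78 and -0.25. The slide of day 8 with both tissues held ileum T3 beside jejunum T1. There the differences were 0.20 for CCK, -0.07 for SST, 0.22 for GHRL, -1.49 for MLN, -0.77 for CHGA and -0.08 for GCG.

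**Figure D2:**
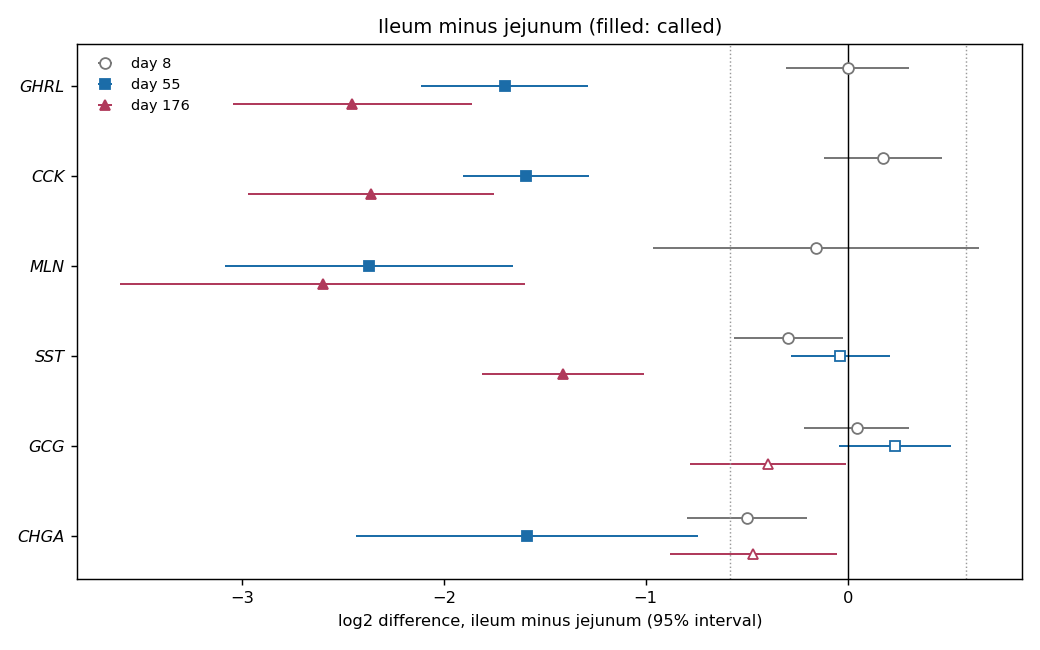
Log2 difference between ileum and jejunum (x axis, ileum minus jejunum) of each gene at days 8, 55 and 176, with 95% intervals from limma. Filled symbols were called and dotted lines mark a fold of 1.5. No point of day 8 was called, while MLN, GHRL and CCK lie at -1.59 or lower at both later days.

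Whether the difference between tissues itself changed with age was tested as a contrast of contrasts over all 67 arrays. CCK, SST, GHRL and MLN were called, each with an ileum level that was lower relative to jejunum at day 176 than at day 8, that is 4 of 6 genes beside 20.8% of 30816 genes called and 10.9% called in this direction. The changes of the difference were -2.54 (SE 0.29) for CCK, -2.45 (SE 0.31) for GHRL, -2.44 (SE 0.60) for MLN and -1.12 (SE 0.21) for SST. Their adjusted p in limma were 2.3e-09, 1.7e-08, 0.00148 and 4.26e-05. GCG changed by -0.44 (adjusted p = 0.124) and CHGA by 0.03 (adjusted p = 0.967), and neither was called. These values rest on the labelled tissues of day 8.

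Among the 6 measured genes, GHRL had the largest fitted change between days 8 and 55 in both tissues. In jejunum GCG, SST, GHRL and CHGA were lower at day 55 than at day 8, 4 of 6 genes beside 37.1% of 30816 genes called and 18.9% called lower. In ileum CCK, SST, GHRL, MLN and CHGA were lower, 5 of 6 beside 47.3% called and 23% called lower. The arrays of the days did not overlap for 3 genes in jejunum (SST, GHRL and CHGA) and 3 in ileum (CCK, GHRL and CHGA), beside 12.9% and 14.5% of all genes. The median change over the 6 genes was -0.91 in jejunum and -2.26 in ileum, with 0.03 and 0.11 over all genes.

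GHRL was at 11.87 to 12.80 at day 8 and at 8.69 to 10.95 at day 55 in jejunum. In ileum it was at 11.72 to 12.78 at day 8 and at 7.31 to 8.42 at day 55. The days did not overlap in either tissue. The change was -2.58 (SE 0.22, 5.96-fold, adjusted p = 6.45e-15) in jejunum and -4.27 (SE 0.22, 19.4-fold, adjusted p = 3.05e-23) in ileum.

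CHGA in jejunum was at 7.51 to 8.93 at day 8 and at 5.64 to 6.83 at day 55, and it fell by 1.93 (SE 0.27, 3.81-fold, adjusted p = 3.71e-08). In ileum it was at 6.95 to 7.91 at day 8 and at 1.73 to 6.02 at day 55, and the change was -3.02 (SE 0.28, adjusted p = 1.05e-13), without a fold since it was not well above background on 4 of 11 arrays of day 55. It was -2.54 (adjusted p = 2.04e-08) without T3 and -1.38 with normexp, and was called in both. The days did not overlap in either tissue.

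SST fell by 1.11 in jejunum (SE 0.15, adjusted p = 7.1e-09), from a range of 14.34 to 15.06 at day 8 to one of 12.84 to 14.05 at day 55 without overlap. In ileum it fell by 0.85 (SE 0.15, adjusted p = 2.88e-06), with the lowest array of day 8 (13.62) inside the range of day 55 (13.32 to 13.87).

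CCK and MLN were called in ileum and not in jejunum, and the difference between the tissues in this change was not tested. CCK in ileum fell by 2.35 (SE 0.21, 5.10-fold, adjusted p = 3.3e-14), from a range of 13.54 to 14.40 at day 8 to one of 10.69 to 12.63 at day 55 without overlap. In jejunum its change was -0.58 (SE 0.20, 1.49-fold, adjusted p = 0.0165), just under the fold asked for, and it was called at -0.65 (adjusted p = 5.36e-05) without the arrays that stood apart. Leaving out a single array made the same call in 9 of 23 cases (at day 8 T1 pools 9 and 12, T2 pool 8 and T3 pools 1 and 3, and at day 55 T1 pools 10 and 12, T2 pool 6 and T3 pool 3), at -0.59 to -0.67.

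MLN in ileum fell by 2.18 (SE 0.43, adjusted p = 1.92e-05), from a lowest, median and highest value of 4.90, 5.86 and 8.82 to one of 2.59, 4.37 and 5.11. The ranges overlapped at their ends, and MLN was not well above background on 4 of 11 arrays of day 55. Its probes changed by -3.21 and -1.14, and the change was -1.88 without T3, -1.46 with the scaling to the 75th percentile and -0.82 with normexp, called in each case. In jejunum MLN was at 5.16, 5.90 and 8.52 at day 8 and at 5.23, 5.76 and 8.80 at day 55, with a change of 0.04 and a 95% interval of -0.80 to 0.87.

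GCG changed least among the called genes. In jejunum it was at 12.98 to 13.87 at day 8 and at 12.20 to 13.24 at day 55, a change of -0.71 (SE 0.15, 1.64-fold, adjusted p = 5.2e-05). In ileum the change of -0.52 (SE 0.15, adjusted p = 0.00241) was under the fold asked for. With the scaling to the 75th percentile of each array the change in jejunum was -0.37 and not called, and that in ileum was -0.68 and called.

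Between days 55 and 176 some of the genes rose in jejunum. SST, GHRL and MLN were called higher there, 3 of 6 genes beside 36.9% of 30816 genes called and 20.1% called higher. SST was higher by 1.19 (SE 0.15, 2.27-fold, adjusted p = 4.42e-09), from a range of 12.84 to 14.05 at day 55 to one of 14.59 to 15.25 at day 176. It was the 1 gene of the 6 whose days did not overlap in jejunum, beside 4.96% of all genes. MLN was higher by 1.38 (SE 0.43, 2.60-fold, adjusted p = 0.00636), with medians of 5.76 and 7.05 and overlapping ranges.

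GHRL in jejunum was higher by 0.60 (SE 0.22, 1.52-fold, adjusted p = 0.0215), just over the fold asked for. The call was lost with the scaling to the 75th percentile (0.57), with quantile normalization within each day (0.36, adjusted p = 0.173), without the arrays that stood apart (0.53) and with the slide as a random block (0.62, adjusted p = 0.0661). It was also lost in 9 of 22 cases when a single array was left out (at day 55 T1 pool 9, T2 pools 5 and 7 and T3 pool 2, and at day 176 T1 pools 9 and 12, T2 pool 8 and T3 pools 1 and 3), at 0.43 to 0.57. CCK was not called in jejunum (0.28, adjusted p = 0.272), but was called at 0.71 (adjusted p = 8.66e-05) without the arrays that stood apart, 2 of which had its lowest values.

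In ileum MLN and CHGA were called higher at day 176 than at day 55, 2 of 6 genes beside 28.3% of 30816 genes called and 15.4% called higher. MLN went from a range of 2.59 to 5.11 to 4.51 to 6.24 (1.15, SE 0.43, adjusted p = 0.0279), and CHGA from 1.73 to 6.02 to 5.36 to 6.93 (1.34, SE 0.28, adjusted p = 0.00013). The ranges overlapped for both, and no gene of the 6 had days without overlap in ileum, beside 4.57% of all genes. Without T3, whose arrays of day 55 were alone on their slide, neither was called, with a change of 0.75 (adjusted p = 0.284) for MLN and 0.84 (adjusted p = 0.0525) for CHGA. MLN was also not called without ileum T2 pool 6 of day 176 (1.03, adjusted p = 0.0565). GHRL in ileum was at 7.31 to 8.42 at day 55 and at 7.08 to 8.26 at day 176, a change of -0.15 with a 95% interval of -0.60 to 0.29.

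**Figure D3:**
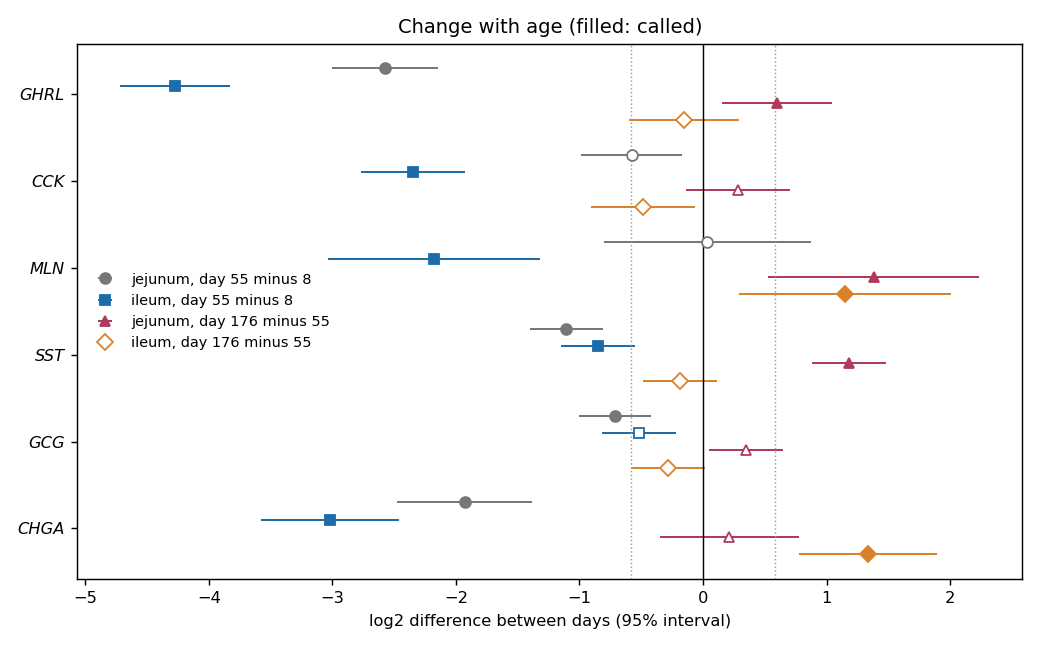
Log2 difference between days (x axis) of each gene in jejunum and ileum, with 95% intervals from limma. Filled symbols were called and dotted lines mark a fold of 1.5. GHRL in ileum (-4.27) is the lowest point, and the changes from day 55 to day 176 lie near or above 0 in jejunum.

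The treatments were compared within each tissue and day. In each of these sets a single treatment lay on another slide than the rest. It was T1 in jejunum and blood at day 8 and in ileum at day 176. It was T3 in ileum at day 8, in both tissues at day 55 and in jejunum at day 176. In differences with that treatment, treatment and slide cannot be told apart. At day 8 none of the 6 genes was called in limma in jejunum, where T2 minus T1 called 0.0184% of 27200 genes and T3 minus T1 and T3 minus T2 called 0%. None was called in ileum either, where T2 minus T1 called 0.29%, T3 minus T1 1.17% and T3 minus T2 0.0257% of the genes. In ileum the unadjusted p in limma was lowest for MLN, at 0.0257 for T3 minus T1 and 0.0271 for T2 minus T1. In jejunum it was lowest for CHGA (0.0482) and MLN (0.0495), both for T2 minus T1. How many of all genes had an unadjusted p as low was not counted. The difference of the treatment effects between the tissues was also called for none of the 6 genes (0.0221% of all genes).

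MLN had the largest treatment differences at day 8. In jejunum its log2 intensity was 8.13, 6.78, 8.52 and 5.22 in T1 pools 9 to 12, 5.61, 6.62, 5.16 and 5.78 in T2 pools 5 to 8, and 5.42, 5.88, 5.93 and 6.80 in T3 pools 1 to 4. In ileum it was 7.81, 6.51, 8.82 and 5.86 in T1, 5.04, 6.76 and 4.90 in T2 pools 5 to 7, and 5.19, 5.82, 5.46 and 6.23 in T3. T1 pools 9 and 11 were the highest in both tissues, and T1 pool 12 lay among the T2 and T3 pools in both.

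For MLN in ileum T2 minus T1 was -1.68 (95% interval -3.16 to -0.21, adjusted p = 0.208) and T3 minus T1 was -1.58 (95% interval -2.94 to -0.21, adjusted p = 0.149). In jejunum the differences were -1.37 (adjusted p = 0.693) and -1.15 (adjusted p = 1). Without ileum T1 pool 12, T3 minus T1 of MLN was -2.04 and was called (adjusted p = 0.0431), in a comparison in which the calls over all genes went from 318 to 4490 when this array was left out. For GCG, CCK, SST and GHRL all differences between treatments in jejunum and ileum at day 8 were within -0.25 and 0.33, with adjusted p of 0.397 or more.

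CHGA in jejunum was 8.39, 8.28, 8.60 and 8.32 in T1, 7.51, 7.89, 8.32 and 7.83 in T2, and 7.81, 7.79, 8.93 and 7.77 in T3. T1 pools were near the top of the range, with T2 pool 7 level with the lowest of them and T3 pool 3 above all. T2 minus T1 was -0.51 (95% interval -1.01 to -0.004, adjusted p = 0.687) in jejunum and 0.37 (adjusted p = 0.441) in ileum.

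At days 55 and 176 the 3 treatments were compared with limma's F test, and none of the 6 genes was called, beside 10.4% of 29139 genes in jejunum and 13.6% in ileum at day 55, and 1.27% of 27905 genes in jejunum and 0.0143% in ileum at day 176. The lowest unadjusted p of these F tests among the 6 genes were those of CCK (0.00843) and MLN (0.0146) in ileum at day 55. How many of all genes had an unadjusted p as low was not counted.

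CCK in ileum at day 55 was 12.04, 11.52, 12.63 and 11.85 in T1, 11.36, 11.17 and 11.52 in T2, and 10.69, 11.19, 11.45 and 11.39 in T3. T1 pools were the highest, with pool 10 level with the highest pools of T2 and T3. T2 minus T1 was -0.66 and T3 minus T1 was -0.83, with an adjusted p of 0.0571 for the 3 treatments.

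MLN in ileum at day 55 was 3.90, 4.65, 4.50 and 4.66 in T1, 5.11, 4.37 and 4.42 in T2, and 2.77, 2.59, 3.36 and 2.88 in T3. All T3 pools were below all others, but T3 was alone on its slide and MLN was not well above background on any of its arrays, so treatment and slide cannot be told apart and no fold is given. The adjusted p for the 3 treatments was 0.0817, and with the sow set as a replicate block MLN was called (adjusted p = 0.0405). CHGA was 5.14, 4.83, 5.22 and 4.43 in T1, 5.15, 5.43 and 5.16 in T2, and 6.02, 5.12, 1.74 and 1.73 in T3, and T3 pools lay both above and below the others on the same slide (adjusted p = 0.239).

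By the methods and the labels of the scanner files, jejunum and ileum arrays of day 8 with the same pool number hold RNA of the same pigs. The genes were therefore also compared between tissues pool by pool. Under the names of the deposited table the relations at day 8 would be read as ones between ileum of day 8 and ileum of day 55. Pools with more MLN in jejunum had more MLN in ileum at day 8. Over 11 pools and after the treatment means were taken out, Pearson's r was 0.938 (exact permutation within treatments, two-sided p = 0.000579, adjusted over 18 relations 0.0104) and Spearman's rho was 0.936 (p = 0.00116, adjusted 0.0104, exact permutation). Without the 2 pools farthest from the median in jejunum r was 0.907. For GCG at day 8 r was 0.815 (exact permutation p = 0.00376, adjusted 0.0338) and rho 0.927 (exact permutation p = 0.000579, adjusted 0.0104), and r without the 2 farthest pools was 0.83.

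GHRL (r 0.813, rho 0.818) and CCK (r 0.811, rho 0.655) had similar values at day 8 but an adjusted p of 0.0666 each by the exact permutation test of r, and that of CCK dropped to 0.52 without the 2 farthest pools. SST (r 0.305) and CHGA (r -0.067) had adjusted p of 0.726 and 0.852 (exact permutation). At days 55 and 176 none of the 6 genes passed, with r between -0.652 and 0.282. No slide held the jejunum and the ileum array of the same pool at day 8.

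**Figure D4:**
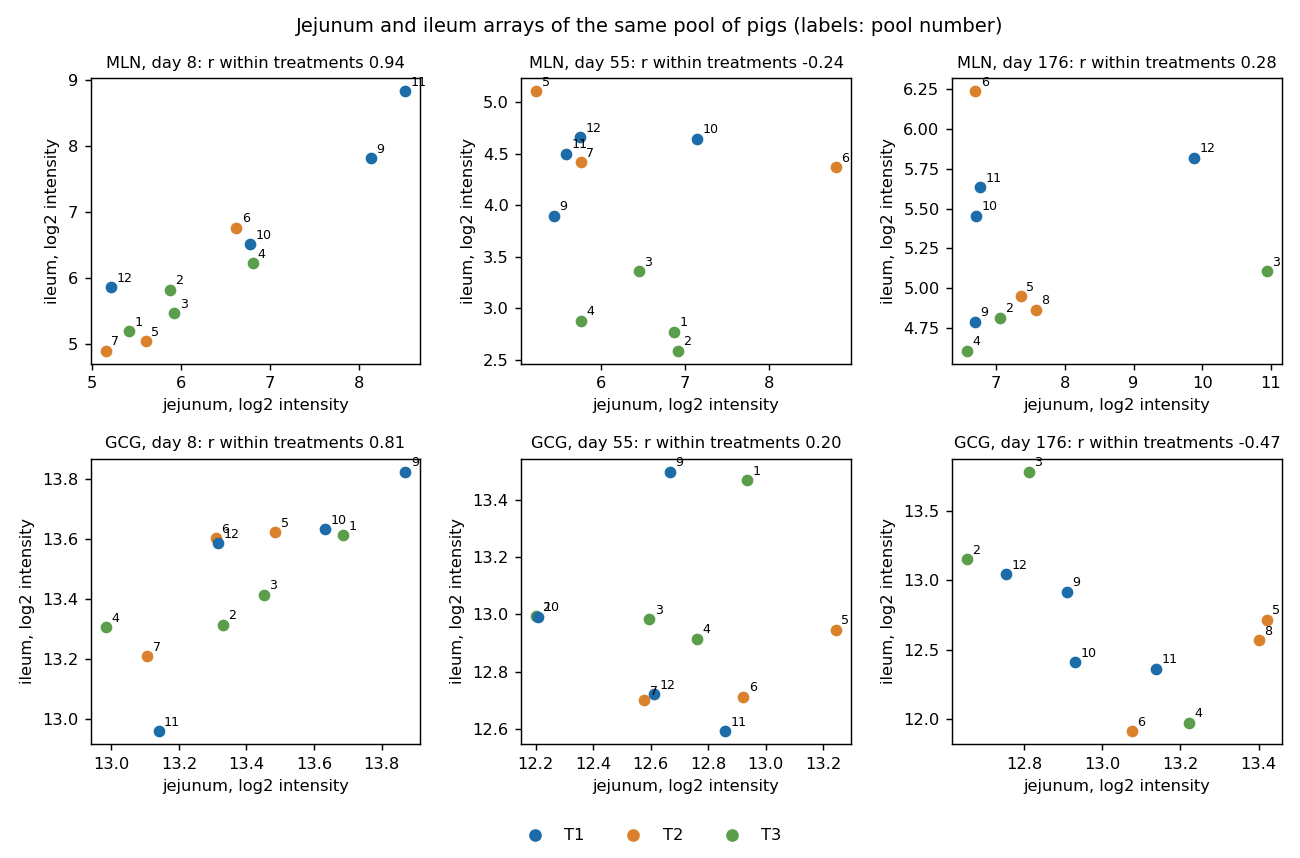
Log2 intensity of MLN and GCG in ileum (y axis) against jejunum (x axis) for arrays with the same pool number, at days 8, 55 and 176. Points are pools, numbered and coloured by treatment, and r is Pearson's r after the treatment means were taken out. At day 8 the MLN points rise along a line (r 0.938), with T1 pools 9 and 11 at the top.

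In blood, GCG, CCK, SST, GHRL and CHGA were not well above background on any of the 12 arrays. MLN was well above background in 8 of 12 arrays by 1 of its 2 probes, with a lowest, median and highest log2 intensity of 2.22, 2.55 and 3.35. Its probes differed by up to 3.42 there. Of the 5 genes that passed the filter on dim signals, none was called in limma between treatments in blood, beside 0.00694% (T2 minus T1), 0.00347% (T3 minus T1) and 0% (T3 minus T2) of 28833 genes.

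Other genes of the same system were read from a list of hormones, neuropeptides and granule proteins, of which 16 of 33 were on the array under their symbols. Between days 8 and 55, 8 of the 15 tested genes were called lower and 0 higher in jejunum, and 10 were called lower and 2 higher in ileum. Over all genes 37.1% were called and 18.9% called lower in jejunum, and 47.3% and 23% in ileum. The medians over the list were -0.64 and -0.61, beside 0.03 and 0.11 over all genes. INS, the gene of insulin, had 7.74, 8.83 and 9.56 as lowest, median and highest value in jejunum at day 8 and 7.54, 8.83 and 9.70 in ileum. At day 55 it was not well above background on any array, so that it was at least 17.7-fold higher at day 8 in jejunum and at least 21.8-fold higher in ileum, with an adjusted p of 6.37e-24 and 2.49e-25. INS was well above background on 1 of 22 tissue arrays at day 176.

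CHGB, which encodes the granule protein chromogranin B, was also lower at day 55. Its lowest value at day 8 was 9.85 in jejunum and 9.87 in ileum, and its highest at day 55 was 8.87 and 8.37. The days did not overlap, and the change was -2.19 (SE 0.19) in jejunum and -2.79 (SE 0.19) in ileum. GAL, the gene of the neuropeptide galanin, changed by -2.54 in jejunum (adjusted p = 2.97e-16). PCSK1, a protease that cuts prohormones, changed by -2.17 in ileum (adjusted p = 6.71e-14) and was well above background on 7 of 11 ileum arrays of day 55. SCG5, which encodes the chaperone 7B2 of the related protease PCSK2, and PDYN, which encodes opioid peptides, were the 2 genes called higher in ileum, SCG5 by 1.54 and PDYN with 5 of 11 arrays of day 55 well above background, and are named after their values were seen.

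**Figure D5:**
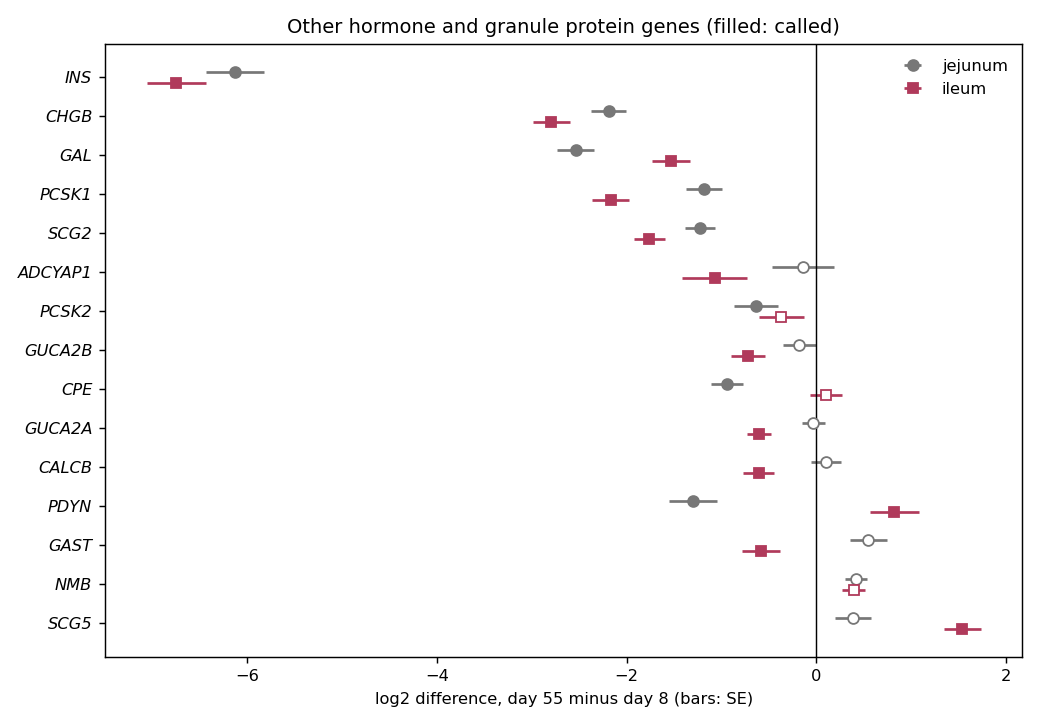
Log2 difference between days 55 and 8 (x axis) of the other hormone, neuropeptide and granule protein genes tested, in jejunum and ileum, with standard errors. Filled symbols were called. INS lies farthest to the left in both tissues; where a gene was not well above background at a day, as INS at day 55, the point is no measure of the size. SCG5 and PDYN are the genes called higher in ileum.

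Between the tissues this list had 2 genes called lower in ileum at day 8 (GUCA2B and PDYN), 4 lower and 4 higher at day 55, and 6 lower and 2 higher at day 176, of 15, 13 and 13 tested, beside 3.54%, 41.7% and 27.2% of all genes called. GUCA2A and GUCA2B, which encode the peptides guanylin and uroguanylin that act on fluid secretion, were lower in ileum at day 176 by 1.72 and 1.64 on the log2 scale (differences of -1.72 and -1.64, adjusted p = 7.22e-08 and 1.15e-06). CALCB, which encodes a calcitonin gene-related peptide, differed by -1.26 at day 176 (adjusted p = 5.48e-05). The genes called at day 55 included PDYN, higher in ileum and not well above background on any jejunum array, GUCA2B (-1.28) and CPE (1.21), which encodes a peptidase of prohormone processing. Between days 55 and 176, 4 of 15 genes were called higher and 0 lower in jejunum (PDYN, GAL by 1.13 and CALCB by 0.81 among them). In ileum 2 were called higher (PDYN and INS) and 1 lower (GUCA2A, -0.72). Over all genes 36.9% were called in jejunum and 28.3% in ileum.

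Of a list of peptide receptors and peptidases, 11 of 34 were on the array. In jejunum 8 of 10 tested were called lower at day 55 than at day 8 and 0 higher, beside 37.1% of all genes called and 18.9% called lower. Among them were SSTR5 (-1.93), a somatostatin receptor, and NPY1R and NPY2R, receptors of neuropeptide Y and peptide YY. Between days 55 and 176, 6 of 10 were called higher there and 0 lower, beside 36.9% of all genes called and 20.1% called higher. MBOAT4, the acyltransferase that activates ghrelin, SSTR1 and NPY2R were among these. At day 55 SSTR1, NPY1R and MBOAT4 were well above background on 0 and NPY2R on 1 of 11 jejunum arrays, so no size is given for them. MBOAT4 was well above background on 8 of 12 jejunum arrays of day 8 and 8 of 11 of day 176.

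In ileum 3 receptor genes of 10 tested were lower and 1 higher at day 55 than at day 8, beside 47.3% of all genes called. NPY1R, not well above background on any ileum array of day 55, and SSTR5 (-1.74) were among them. At day 176, 3 were higher than at day 55, beside 28.3% of all genes called and 15.4% called higher. Between the tissues 1 gene (NPY2R) was lower in ileum at day 8, 3 were lower and 1 higher at day 55, and 2 were lower and 1 higher at day 176, of 10, 9 and 9 tested and beside the shares of all genes given above. SSTR5, a somatostatin receptor, was higher in ileum than in jejunum at day 176 (1.36, adjusted p = 0.00181), where SST itself was lower. PDX1 was the 1 of 20 endocrine transcription factors on the array, and it was well above background on 8 of 11 ileum arrays of day 55 and lower in ileum at days 55 (-2.78, adjusted p = 8.35e-07) and 176 (-1.62, adjusted p = 0.0323).

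Markers of other cells moved with the same comparisons, and their part in the results was not tested. Of the epithelium markers, 5 of 12 were on the array and well above background on every tissue array. In ileum 4 of 5 were called lower than in jejunum at day 55 and 3 of 5 at day 176, beside 20.8% and 14.6% of all genes called lower, with summed levels of 18.2 to 18.8 (log2) in jejunum and 17.3 to 18.2 in ileum at day 55 and of 18.3 to 18.6 and 17.1 to 17.6 at day 176. In jejunum, 2 of 5 were called higher at day 55 than at day 8, beside 37.1% of all genes called. In ileum 2 of 5 were called lower, beside 47.3% of all genes called and 23% called lower.

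Between days 8 and 55, 37.1% of all genes were called in jejunum (18.9% lower) and 47.3% in ileum (23% lower). Of 30816 genes, 5587 were called higher in jejunum and 7515 in ileum. The following counts stand beside these shares. Smooth muscle markers, 4 of 8 on the array, were lower at day 55 than at day 8 for 3 of 4 genes in jejunum and 4 of 4 in ileum, with summed levels of 14.2 to 15.1 and 12.5 to 13.4 in jejunum and of 13.2 to 14.8 and 12.5 to 13.2 in ileum. Leukocyte markers, 7 of 11 on the array, were called higher at day 55 for 4 of 6 tested in jejunum and 5 of 6 in ileum, with summed levels of 11.7 to 16.4 and 16.4 to 17.4 in jejunum and of 14.5 to 16.0 and 15.1 to 16.2 in ileum. Of 3 enteric neuron markers of 15 on the array, 1 was lower at day 55 in each tissue, and 2 of 5 glia markers were both lower in jejunum, with 1 higher in ileum.

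Stomach and pancreas markers were read as well, since both organs hold cells that make some of these hormones. Their counts stand beside 37.1% of all genes called between days 8 and 55 in jejunum and 47.3% in ileum. Called higher were 5587 of 30816 genes in jejunum and 7515 in ileum. Of 5 stomach markers of 12 on the array, 2 of 4 tested were higher and 1 lower at day 55 than at day 8 in jejunum, and 4 of 4 were higher in ileum, with summed levels of 6.70 to 7.36 and 6.88 to 7.87 in jejunum and of 5.96 to 7.12 and 7.56 to 9.41 in ileum. The stomach genes GKN1 and GKN2 were not well above background on any ileum array of days 8, 55 and 176, and GKN1 was not on any jejunum array. Of 6 exocrine pancreas markers of 11 on the array, 3 were higher and 1 lower at day 55 than at day 8 in each tissue, with summed levels of 10.5 to 11.4 and 10.4 to 11.2 in jejunum and of 10.6 to 11.5 and 9.81 to 10.5 in ileum. None of 7 erythroid markers was on the array under its symbol.

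The genes with the most similar pattern were sought among 2222 genes with a symbol, by Pearson's r over the means of the 18 groups of tissue, day and treatment, which share slides and age. For GHRL these were VNN1 (r 0.976) and CACNA2D1 (r 0.974), for CCK they were CLPS (r 0.972) and SLC5A11 (r 0.964), and for CHGA they were GABBR1 (r 0.968) and DECR1 (r 0.933). SST was most like MMP2 (r 0.942) and PPP1R14A (r 0.928), GCG most like PNLIPRP1 (r 0.904) and PDE3A (r 0.864), and MLN most like PDK4 (r 0.87) and CYP2C42 (r 0.859). Among the 6 genes themselves r was highest for CCK and GHRL (0.913) and lowest for GCG and MLN (0.193).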

How the data were processed

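RNA of pooled pigs was labelled with Cy3 and hybridised to 1-colour Agilent arrays, 1 array per pool, by the authors. The spot intensity values were deposited as Agilent Feature Extraction 10.7.3.1 wrote them, background-subtracted, spatially detrended and not normalized between arrays. The authors also deposited median spot and background intensity values and flags. Their table of log2 values, normalized and centred per probe by the authors, was only compared with the arrays, since most tissue columns of days 8 and 55 held other arrays than named.

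Intensities were set to at least 1, log2-transformed and quantile normalized over the 67 tissue arrays, or the 12 blood arrays. Control spots and spots marked as outliers were left out. Probes had to reach the 20th percentile on every array of at least 1 group. Probes of one gene were averaged. Group means were fitted with limma 3.58.1 (R 4.3.3, statmod 1.5.0; Python 3.11.15) per day, or over all days for age, with Benjamini-Hochberg adjustment over all genes tested. The test was checked on simulated data. A fold against signals below background was taken against the lowest signal well above background. For each gene the 2 genes most like it were named, and from each list up to 3 called genes with the largest change.

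Pool numbers mark the same pigs in jejunum and ileum of day 8 by the methods, and same-numbered arrays had a mean residual correlation of 0.196 at day 8, 0.0678 at day 55 and 0.0516 at day 176, against -0.0659, -0.0247 and -0.0164 for other numbers. Sow sets pair pools between treatments. Where nothing says that pools of days 55 and 176 came from separate pigs, p-values measure the spread between these arrays. The number of arrays limits the precision. Genes and lists were chosen with earlier results of these data known. Alternatives were another scaling, background correction, filter, spread estimate, blocks and arrays left out.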

Additional observations from a re-analysis of the deposited data

Results flagged for a closer look

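In groups of 4 arrays, 6 of 81 sets of values had a highest or lowest pool far from the other 3 by Dixon's test, which chance does in about 1 in 20 groups. The lowest were CCK in jejunum T3 of day 176 (pool 4, log2 intensity 12.4) and CHGA in ileum T3 of day 8 (pool 2, 7.28). The highest were CHGA in jejunum T3 of day 8 (pool 3, 8.93), GCG in ileum T3 of day 55 (pool 1, 13.5), MLN in jejunum T1 of day 176 (pool 12, 9.87) and MLN in blood T3 of day 8 (pool 4, 3.20, not well above background). Jejunum T3 pool 4 of day 176 was among the arrays that stood apart.

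The difference between ileum and jejunum was not the same at days 8 and 176 for 4 genes, by the test of the change itself. It changed by -2.54 for CCK, by -1.12 for SST, by -2.45 for GHRL and by -2.44 for MLN (log2, day 176 less day 8). These values rest on the labelled tissues of day 8. With the slide as a block the differences of these 4 genes at day 176 were not called, while the changes were called with the slide as a random block.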

How the results depend on the processing

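In 18 of the 22 comparisons the number of genes called stayed within 1.5 times the main number under every alternative run. For ileum against jejunum at day 176 it was 4, and 0 with the slide as a block. For ileum between days 55 and 176 it was 2, and 1 with the scaling to the 75th percentile, 4 with quantile normalization within each day (2 higher and 2 lower), 0 with normexp, 1 with the slide as a random block and 1 over T1 and T2 only, and 1 to 2 when single arrays were left out. For the treatments in ileum at day 55 it was 0, and 1 with the scaling to the 75th percentile, normexp or an intensity trend (CCK), with each probe tested alone or the sow set as a replicate block (MLN), and with 1 fit of all 67 arrays (CHGA), and 0 to 1 when single arrays were left out, with 1 without T3 pool 1 (CHGA) or without T1 pool 10 (CCK). For T3 minus T1 in ileum at day 8 it was 0 to 1 in this way. The pool number as a replicate block left 4 genes called between the tissues at day 55, 4 at day 176 and 4 for the change of that difference, and changed no call of a gene; the sow set changed none other than that of MLN. Scaling to the 75th percentile moved the median change of all genes from 0.11 to 0.45 for ileum between days 8 and 55, from 0.01 to 0.49 for jejunum between days 55 and 176 and from 0.03 to 0.41 between the tissues at day 55, and no called gene changed direction under any alternative. CHGA between the tissues at day 55 was -0.48 with normexp and not called. Over single genes and settings, genes called under the main setting kept their call in 905 cases and lost it in 28. Scaling to the 75th percentile also moved the share of all calls that were higher, from 25.3% to 6.19% between the tissues at day 8, from 50% to 73.8% at day 55, from 46.4% to 28.9% at day 176, from 51.5% to 71.8% for ileum between days 8 and 55, from 54.3% to 81.9% for jejunum and from 54.3% to 35.4% for ileum between days 55 and 176, and quantile normalization within each day moved it to 63.6% from 48.9% for jejunum and to 62.2% for ileum between days 8 and 55, and normexp to 5.48% between the tissues at day 8. Normexp used the median spot signal, the mean being not used here. Leaving out the arrays that stood apart, the random slide block and the fit over T1 and T2 were chosen after seeing the data. Limits are the 3 or 4 pools per group, genes near background in ileum at day 55, and the tissue names of day 8. Slides also follow the days, the tissues of day 55 and, in part, the treatments. The cause of these changes was not tested.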
